A study of Mus musculus with 6 samples.

Results

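The genes described here encode the cytosolic and mitochondrial chaperones of activated mouse B cells: the HSP90 and HSP70 proteins, their HSP110 and J-domain co-chaperones, the chaperonin CCT, the mitochondrial chaperonin and the small heat shock proteins. They were chosen by gene symbol, and 78 of the 39017 genes in the count table met the rule, with 77 distinct symbols because Hspa14 is listed under 2 gene identifiers. The main chaperones of the endoplasmic reticulum and 9 pseudogene symbols were left out. Symbols do not sort proteins by compartment, and some members, among them Hspa13, Dnajb12, Dnajb14 and Dnajc1, are known from the endoplasmic reticulum or its membrane. Of the 78 members, 67 had enough counts to be tested.

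RNA-seq had been done on induced germinal center B cells (iGBs), which are splenic B cells of C57BL6/J mice grown with IL-4 on 40LB cells, a fibroblast feeder line that supplies CD40L and BAFF. The Control libraries came from 3 Cγ1-cre mice and the Prmt1-null libraries from 3 Prmt1F/F Cγ1-cre mice, 1 library per mouse, harvested at day 3.5 after the feeders had been depleted by magnetic beads. Each group held 2 females and 1 male. Both groups carried the Cγ1-cre allele, which is active in B cells that transcribe the IgG1 constant region, so only cells that had turned on Cre could lose Prmt1. Prmt1, the main enzyme that places asymmetric dimethylarginine on proteins, had normalized counts of 3964, 3924 and 4838 in Control and 1745, 1478 and 1477 in Prmt1-null iGBs, 36.9% of Control, so transcript remained in all 3 Prmt1-null libraries.

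Chaperones bind proteins that are not yet folded, or have lost their fold, and release them in cycles driven by ATP. HSP70 takes up short hydrophobic stretches as a chain is made or enters an organelle. J-domain proteins bring it clients and trigger ATP hydrolysis, HSP110 proteins exchange its nucleotide, and HSP90 receives partly folded clients such as kinases and steroid receptors. CCT folds actin and tubulin inside a double ring, and the mitochondrial chaperonin does the same for imported matrix proteins. B cells activated through CD40 enlarge and divide, and make much new protein as they do so.

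Library totals ran from 45343250 to 62774232 counts. Summed markers of B cells were between 5969 and 6338 CPM (counts scaled to library size) in Control and between 6320 and 6650 in Prmt1-null iGBs. Plasma cell markers, of which 5 of 6 were in the table and none at 0, summed to 821 to 902.5 CPM in Control and 956 to 1038 CPM in Prmt1-null, without overlap, and their part in the differences below was not tested. Of the 4 tested, only Xbp1 was higher without overlap (25%, beside 9.95% of all genes), and all 4 had a log2 fold change above 0. Expression was measured in bulk, so fewer cells of a type and less RNA per cell cannot be told apart.

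The chaperone genes were described first as a group, to see how far their transcripts differed between Control and Prmt1-null iGBs. Hsp90ab1, the constitutive cytosolic HSP90, rose in Prmt1-null iGBs, and it was the only member past the threshold (a mean of more than 100 normalized counts and an adjusted p below 0.05, edgeR quasi-likelihood test with Benjamini-Hochberg adjustment over 18268 genes). No member fell. This was 1 of 67 members, or 1.49%, where 1.18% of all genes passed, 0.58% higher and 0.602% lower, so the share of members past the threshold was near the background. By the unadjusted p under 0.05, 11 members (16.4%) were higher and 1 (1.49%) lower, beside 6.5% and 7% of all genes. The count of 11 was 7 without Control replicate 1, 6 without Control replicate 3 or Prmt1-null replicate 2, and 4 without Prmt1-null replicate 3. The groups did not overlap for 18 members with higher Prmt1-null values (26.9%) and for 3 with lower values (4.48%), beside 9.95% and 9.92% of all genes. A log2 fold change above 0 was seen in 44 members (65.7%), beside 49.9% of all genes, and the median was 0.07 for the members and -0.00 for all genes. The 67 members are those that passed the filter on low counts. With the 59 members whose mean was over 100, the counts by the unadjusted p were 8 higher (13.6%) and 1 lower (1.69%), beside 7.94% and 8.89% of the 13092 genes with such a mean.

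**Figure D1:**
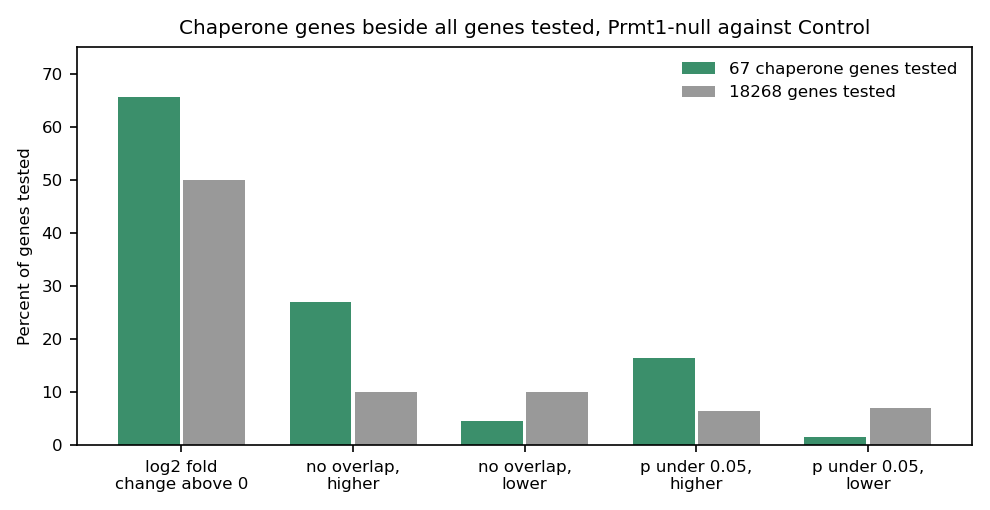
Percent of genes tested (y axis) that met each of 5 descriptions of the Prmt1-null against Control comparison (x axis), for the 67 chaperone genes tested (green) and all 18268 genes tested (grey). The green bars are taller for the 3 descriptions of higher Prmt1-null values (65.7%, 26.9% and 16.4%) and shorter for the 2 of lower values (4.48% and 1.49%), all with the 6 libraries. The 11 genes behind the 16.4% became 4 to 12 when a library was left out.

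As a share of each library's counts, the 78 chaperone genes took 0.512%, 0.536% and 0.521% in Control and 0.561%, 0.586% and 0.585% in Prmt1-null iGBs. The Prmt1-null libraries were all above the Control libraries, and the means differed 1.10-fold. Hsp90ab1 made up much of that difference. Without it, the share was 0.409% ± 0.0113 (SD, n = 3) in Control and 0.435% ± 0.0116 (SD, n = 3) in Prmt1-null iGBs, 1.06-fold, and the groups overlapped. HSP90 genes went from a mean of 0.139% to 0.168%, and HSP70 genes from 0.0792% to 0.0918%, each without overlap. The DNAJA genes (0.0236% and 0.0244%) and the mitochondrial chaperonin (0.0275% and 0.0298%) were also apart, by less. Most of the HSP90 counts were on Hsp90ab1 and most of the HSP70 counts on Hspa8. Of the 11 HSP70 genes, 6 (54.5%) had a log2 fold change above 0 and 5 below, beside 49.9% of all genes above 0. The CCT subunits, at 0.122% and 0.130%, overlapped between the groups, as did the DNAJB, DNAJC, HSP-binding, HSP110 and small HSP genes.

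**Figure D2:**
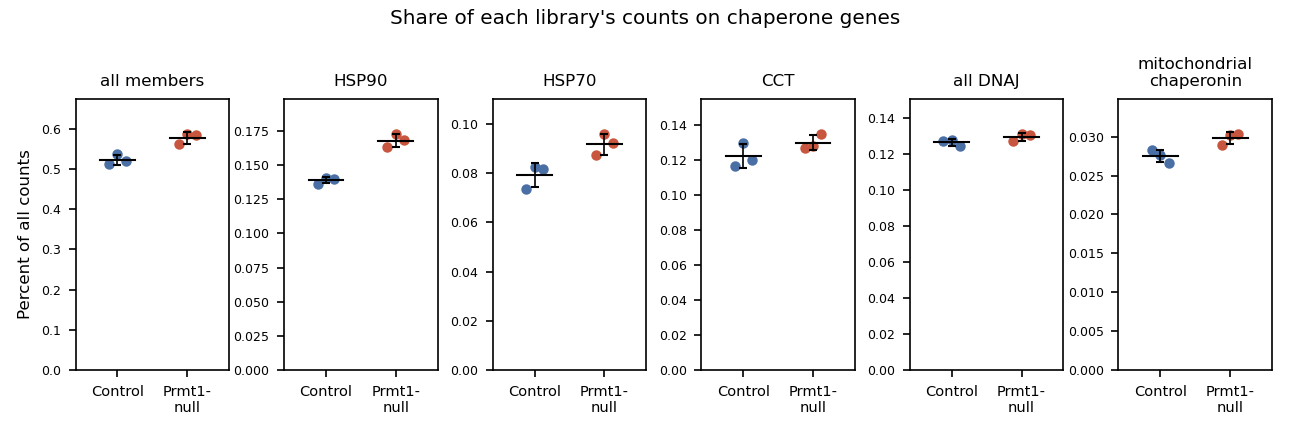
Percent of all counts (y axis, from 0) on chaperone genes in each library, for all members and 5 classes (all DNAJ sums DNAJA, DNAJB and DNAJC). Points are libraries (3 Control, blue, and 3 Prmt1-null, red), lines are means and bars are SD. The groups are apart for all members, HSP90, HSP70 and the mitochondrial chaperonin.

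The HSP90 pair came apart. Hsp90ab1 (ENSMUSG00000023944, chromosome 17, 45567775 to 45573271, minus strand, GRCm38) had normalized counts of 61151, 63122 and 64262 in Control and 78051, 80999 and 77682 in Prmt1-null iGBs. Every Prmt1-null library stood above every Control library, and the gap was far wider than the spread within either group. The log2 fold change was 0.33 ± 0.06 (SE), an increase of 25.6%, with an adjusted p of 0.0152 by edgeR. The call was lost without Control replicate 2 (adjusted p 0.0933), Prmt1-null replicate 1 (0.0651) or Prmt1-null replicate 2 (0.109), while the log2 fold change stayed between 0.31 and 0.35 in all 6 fits that left out a library. Hsp90aa1, the more stress-inducible cytosolic paralog, had counts of 14026, 14263 and 13552 in Control and 13706, 15727 and 14354 in Prmt1-null iGBs. Its groups overlapped, and the log2 fold change was 0.07 ± 0.06 (adjusted p 0.727). The ratio of Hsp90ab1 to Hsp90aa1 counts was 4.36, 4.42 and 4.74 in Control and 5.695, 5.15 and 5.41 in Prmt1-null iGBs. All 3 Prmt1-null ratios were above all 3 Control ratios, a description with no test, since the pair was set side by side after the values were seen. The reads of the paralogs can be told apart for the most part, since 0.0755% of the 31-base windows of Hsp90aa1 transcripts also occur in Hsp90ab1. However, 51.5% of the Hsp90aa1 windows and 13.2% of the Hsp90ab1 windows occur in transcripts of some other annotated gene, pseudogenes included, and the authors counted only reads placed at no more than 2 locations.

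**Figure D3:**
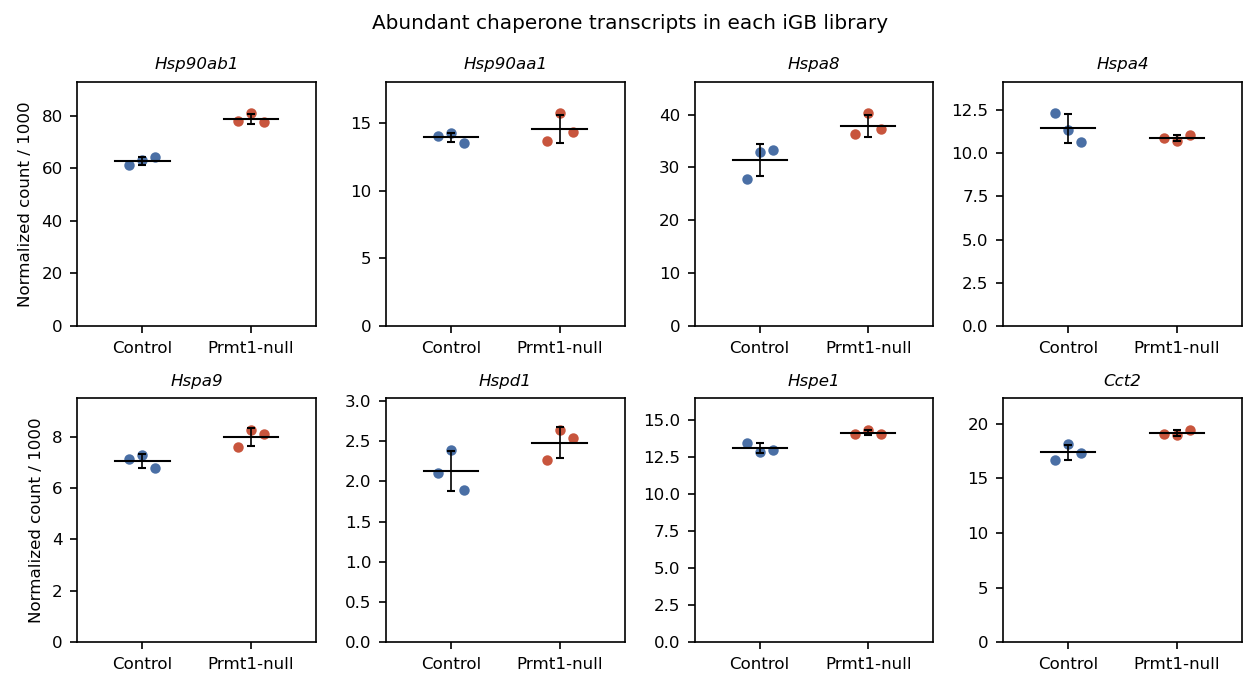
Normalized counts divided by 1000 (y axes, from 0) of 8 abundant chaperone transcripts in each library. Points are libraries (Control, blue, and Prmt1-null, red), lines are means and bars are SD, n = 3. Hsp90ab1 is clear of the Control range (61151 to 64262) in all 3 Prmt1-null libraries, whereas Hsp90aa1, Hspa4 and Hspd1 overlap.

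Of the HSP70 genes, the constitutive ones were the highest and the heat-inducible ones were low. Hspa8, the constitutive cytosolic HSP70 (Hsc70), had normalized counts of 27842, 32989 and 33216 in Control and 36304, 40224 and 37183 in Prmt1-null iGBs. Control replicate 1 was the lowest library, and the groups did not overlap. The log2 fold change was 0.27 ± 0.08, an increase of 20.9%, but the adjusted p of 0.109 missed the threshold. It passed in 3 alternatives (DESeq2, adjusted p 0.00833; edgeR without a filter on low counts, 0.00424; sex as a covariate, 0.0424) and in none of the fits that left out a library (0.0597 to 0.403). Transcripts of other annotated genes hold 44.8% of the Hspa8 windows, and exons of Hspa8 also hold 3 small nucleolar RNA genes on the same strand. Hspa9, the mitochondrial HSP70 that pulls proteins through the inner membrane, had counts of 7115, 7271 and 6765 in Control and 7611, 8260 and 8096 in Prmt1-null iGBs. The groups did not overlap, with a log2 fold change of 0.18 ± 0.06 and an adjusted p of 0.177.

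Hspa1a and Hspa1b, the heat-inducible HSP70 genes, were near 100 counts in every library. Hspa1a had 108, 94.8 and 89.2 in Control and 117, 124 and 102 in Prmt1-null iGBs, and Hspa1b had 120, 102 and 118 in Control and 112, 127 and 123 in Prmt1-null iGBs. Both overlapped between the groups, with log2 fold changes of 0.23 ± 0.24 and 0.09 ± 0.23. The genes are near copies, and 63.8% of the Hspa1a windows occur in Hspa1b, so the split of reads between them is uncertain. Hspa2, first known from testis, ran from 1064 to 1203 counts with overlapping groups (log2 fold change -0.05). Hspa14, a ribosome-bound HSP70, ran from 1581 to 1810 counts under 1 identifier and from 411 to 514 under the other, with log2 fold changes of -0.05 and -0.04. The first of these identifiers, ENSMUSG00000051396, is named Gm45902 in GENCODE M21. The 2 identifiers share 321 exon bases, so their separate values are uncertain.

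The members with the largest differences in this class were low ones. Hspa12a, a distant HSP70 relative, had counts of 340, 217 and 246 in Control and 196, 127 and 189 in Prmt1-null iGBs. All Prmt1-null values lay below all Control values, and it was the 1 member with an unadjusted p under 0.05 in the lower direction (log2 fold change -0.64 ± 0.22, adjusted p 0.201). Hspa12b, its paralog, went the other way at a much lower level, with 17.0, 27.2 and 23.1 counts in Control and 47.6, 45.2 and 43.5 in Prmt1-null iGBs (log2 fold change 1.00 ± 0.47, adjusted p 0.369). Hspa1l, a testis form next to Hspa1a, had 12.1, 42.1 and 33.1 counts in Control and 82.0, 79.3 and 56.7 in Prmt1-null iGBs (log2 fold change 1.30 ± 0.45, adjusted p 0.204). Neither Hspa12b nor Hspa1l overlapped between the groups, and neither reached the minimum mean of 100. Moreover, 71.9% of the exon length of Hspa1l overlaps Gm10501 on the opposite strand and 71.7% of its windows occur in other genes, so its counts are uncertain where the counting did not use strand.

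The HSP110 genes, whose products exchange ADP for ATP on HSP70, did not share a direction. Hspa4 had 12302, 11357 and 10624 counts in Control and 10903, 10710 and 11027 in Prmt1-null iGBs, inside the Control range. Hsph1 had 1560, 1617 and 1433 counts in Control and 1615, 1866 and 1594 in Prmt1-null iGBs, also overlapping (log2 fold change 0.14 ± 0.09). Hspa4l had 373, 377 and 316 counts in Control and 298, 288 and 271 in Prmt1-null iGBs, with all Prmt1-null values lower (log2 fold change -0.32 ± 0.15, adjusted p 0.371). The ratio of Hspa8 to Hspa4 was 2.26, 2.905 and 3.13 in Control and 3.33, 3.76 and 3.37 in Prmt1-null iGBs. These ratios did not overlap either, again without a test.

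The J-domain genes were the largest group, with 35 tested, and none passed the threshold (smallest adjusted p 0.328 by edgeR; 1 gene, Dnajc18, or 2.86%, with an unadjusted p under 0.05, higher, beside 6.5% of all genes; 0 called by every alternative, and 1.18% of all genes called). Their median log2 fold change was 0.06, beside 0.12 for the 32 other members. In the DNAJA class, general HSP70 partners related to the bacterial DnaJ, Dnaja2 had counts of 6031, 6008 and 5992 in Control and 6308, 6419 and 6604 in Prmt1-null iGBs. The Prmt1-null libraries were all higher, although the log2 fold change was small (0.10 ± 0.05, adjusted p 0.452). Dnaja1 was likewise higher in every Prmt1-null library (4795 to 5065 against 5092 to 5153, log2 fold change 0.06), and so was Dnaja4 (153 to 162 against 164 to 200, log2 fold change 0.19), whose exons overlap Wdr61 on the opposite strand over 44.1% of their length. Dnaja3, the mitochondrial form, overlapped between the groups (log2 fold change -0.05).

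In the DNAJB class, 9 genes were tested. Dnajb1, the heat-inducible partner of HSP70, had 1844, 1929 and 2138 counts in Control and 1789, 1925 and 1990 in Prmt1-null iGBs, with overlapping groups and a log2 fold change of -0.05 ± 0.09. Dnajb6, which holds back aggregation of polyglutamine proteins, ran from 817 to 950 counts in Control and from 828 to 905 in Prmt1-null iGBs (log2 fold change 0.02). Dnajb5 had 682, 686 and 701 counts in Control and 777, 767 and 787 in Prmt1-null iGBs. Its groups were narrow and did not overlap (log2 fold change 0.17 ± 0.11, adjusted p 0.516), and neither did those of Dnajb12, the highest of the class per kilobase of exon (2396 to 2460 against 2483 to 2558, log2 fold change 0.06). Dnajb7, at 3.31 to 26.3 counts, had the lowest log2 fold change of the class (-0.16 ± 0.85), with an error many times its size.

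The DNAJC class holds proteins that share only the J domain. Dnajc18 had 716, 833 and 865 counts in Control and 910, 917 and 1087 in Prmt1-null iGBs, with all Prmt1-null libraries higher (log2 fold change 0.27 ± 0.12, adjusted p 0.328). Dnajc25 (408 to 522 against 528 to 619, log2 fold change 0.24) and Dnajc27 (706 to 740 against 773 to 786, log2 fold change 0.10) were also higher without overlap, and Dnajc14 was lower without overlap (2278 to 2489 against 2127 to 2237, log2 fold change -0.12). Dnajc12 had the highest log2 fold change of the class (0.40 ± 0.21) and Dnajc15, an inner mitochondrial membrane protein, the lowest (-0.16 ± 0.13), but both overlapped. Dnajc7, which binds HSP70 and HSP90 and was the highest of the class per kilobase, ran from 8954 to 9874 counts in Control and from 9588 to 9737 in Prmt1-null iGBs. Among the HSP-binding genes, Hspbp1, a nucleotide exchange factor for HSP70, and Hspbap1 overlapped, with log2 fold changes of 0.18 and -0.00.

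**Figure D4:**
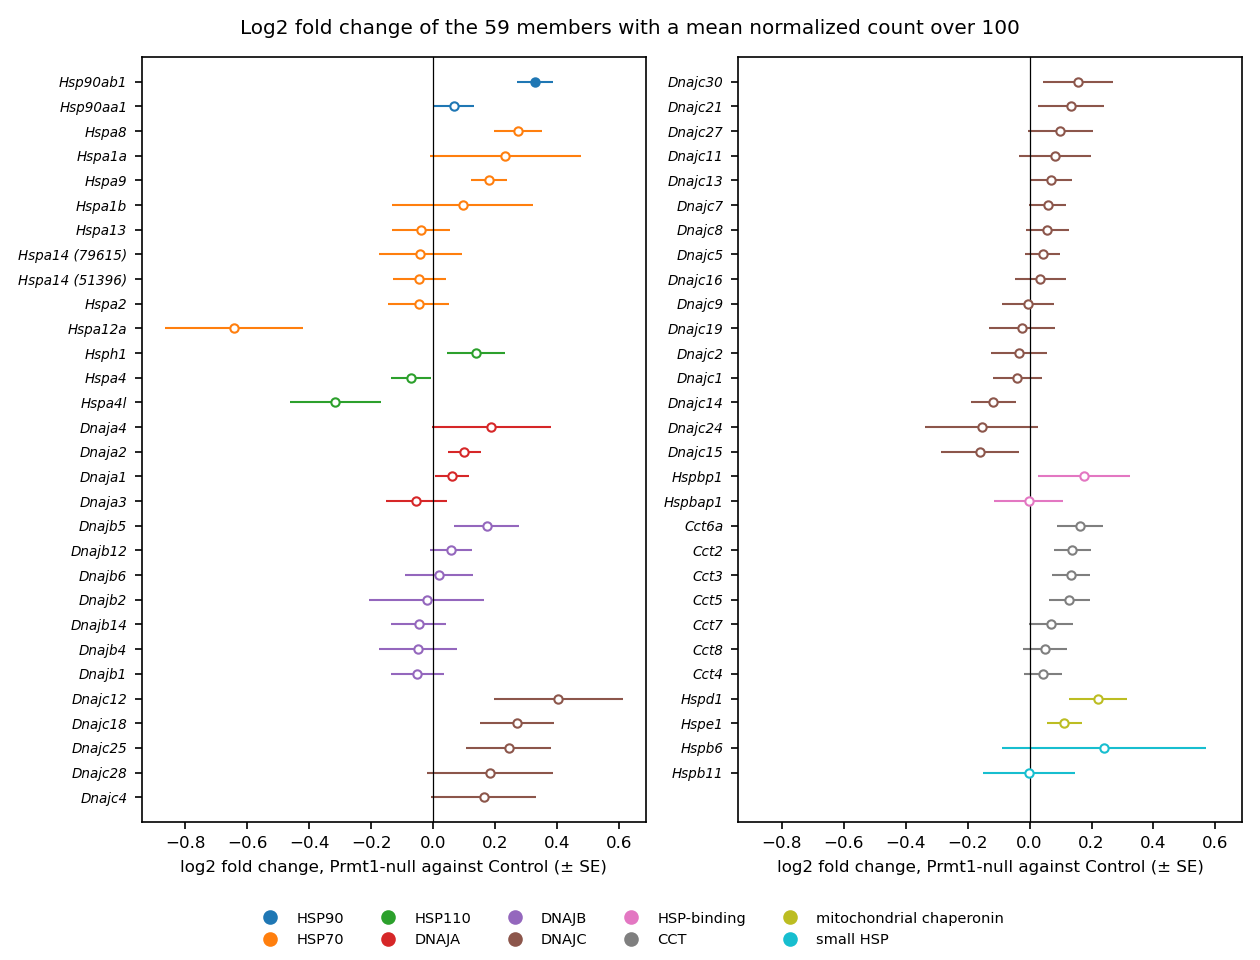
Log2 fold change of Prmt1-null against Control (x axes, ± SE) of the 59 members with a mean normalized count over 100, sorted by class (colors) and, within a class, by size. The filled point is the member past the threshold, Hsp90ab1 at 0.33, and the lowest is Hspa12a at -0.64; the numbers beside Hspa14 are the last digits of its identifiers.

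All 7 abundant subunits of CCT had log2 fold changes above 0, between 0.04 and 0.16, and none passed the threshold (smallest adjusted p 0.318 by edgeR, with 3 of 8 tested at an unadjusted p under 0.05, all higher, where 6.5% of all genes were, and 0 called by every alternative). Cct2 had counts of 16712, 18130 and 17318 in Control and 19033, 18938 and 19439 in Prmt1-null iGBs, without overlap (log2 fold change 0.14 ± 0.06). Cct3 had counts of 5422, 5738 and 5337 in Control and 5795, 5916 and 6394 in Prmt1-null iGBs, again without overlap (0.13 ± 0.06). Cct5 was the third subunit whose groups stood apart (9477 to 11027 against 11152 to 11808, 0.13 ± 0.07), which made 3 of 8 tested (37.5%) beside 9.95% of all genes. Cct6a, with the highest log2 fold change (0.16 ± 0.07), overlapped (4023 to 4555 against 4344 to 5193), as did Cct4, Cct7 and Cct8 (0.04, 0.07 and 0.05). Control replicate 1 was the lowest library for Cct2, Cct5, Cct6a, Cct7 and Cct8. Without it, the class median moved from 0.10 to 0.05, and the log2 fold changes were 0.11 for Cct2, 0.13 for Cct3, 0.04 for Cct4, 0.07 for Cct5, 0.12 for Cct6a, 0.0048 for Cct7 and 0.0060 for Cct8. With any other library left out, the class median was between 0.09 and 0.15. Cct6b, the testis counterpart of Cct6a, was at 9.22 to 28.6 counts. Tcp1, which encodes the remaining CCT subunit but has another kind of symbol, had counts of 24121 to 26844 in Control and 25246 to 27189 in Prmt1-null iGBs, overlapping (log2 fold change 0.05, adjusted p 0.793).

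The subunits of CCT stand in equal numbers in the ring, but their transcripts did not in normalized counts per kilobase. Per kilobase of merged exons, averaged over the 6 libraries, Cct2 was at 7142, Cct5 at 3937, Cct4 at 3876, Cct8 at 3064, Cct6a at 1251, Cct3 at 905 and Cct7 at 687. The library ranges of Cct4 and Cct5 overlapped (3641 to 4059 and 3426 to 4269), and those of the other neighbours did not. The values depend on the length used, since the merged exons of Cct3 and Cct7 span 6370 and 6778 bases and their longest protein-coding transcripts 1977 and 2441. Per kilobase of the latter, a choice made after seeing the data, Cct2 was at 9322, Cct4 at 6556, Cct5 at 5877, Cct8 at 3952, Cct3 at 2917 and Cct7 at 1907, so that Cct4 and Cct5 changed places and Cct3 and Cct7 stayed the lowest of these 6. Over all members, Hsp90ab1 was the highest per kilobase of merged exons (20390 to 27009 over libraries), followed by Hspe1 (8703 to 9714), Hspa8 (6473 to 9352) and Cct2 (6536 to 7602). Of these, the ranges of Hspe1 and Hspa8, and of Hspa8 and Cct2, overlapped.

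The mitochondrial chaperonin is made of Hspd1 (Hsp60), the folding barrel, and Hspe1 (Hsp10), its lid. Hspd1 had counts of 2101, 2386 and 1896 in Control and 2268, 2637 and 2534 in Prmt1-null iGBs. Prmt1-null replicate 1 fell below Control replicate 2, and the log2 fold change was 0.22 ± 0.09 (unadjusted p 0.0338, adjusted p 0.31). Hspe1 had counts of 13458, 12828 and 12936 in Control and 14011, 14319 and 14052 in Prmt1-null iGBs. These did not overlap, with a smaller log2 fold change of 0.11 ± 0.06 (adjusted p 0.419). The ratio of Hspe1 to Hspd1 was between 5.38 and 6.82 in Control and between 5.43 and 6.18 in Prmt1-null iGBs, overlapping. Both genes have many pseudogene copies, and 53.1% of the Hspd1 windows and 30.5% of the Hspe1 windows occur in other annotated genes.

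Hspd1 and Hspe1 lie head to head on chromosome 1, and their RefSeq promoter windows (GRCm38.p6, 250 bases before to 50 after the start) share 285 bases. Heat shock factors bind inverted repeats of GAA, and a stretch of the shared window is shown because it holds the longest such run among the members that could be searched. In GENCODE the genes overlap by 112 exon bases on opposite strands, and the stretch lies inside the span of Hspd1, touching an annotated exon, and upstream of Hspe1. Its first element starts at position -144 from the Hspd1 start on the minus strand and at -89 from the Hspe1 start on the plus strand, and both strands are given 5′ to 3′ with the elements GAANNTTC and TTCNNGAA in capitals. Single elements in windows of Hspa1a (identical in Hspa1b), Cct2 and Cct5, and the 3-unit run of Dnajb6, are given for comparison.
Hspe1, chr1:55088053-55088082, plus strand: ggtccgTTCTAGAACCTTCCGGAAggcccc
Hspd1, chr1:55088053-55088082, minus strand: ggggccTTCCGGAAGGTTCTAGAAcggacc
Dnajb6, chr5:29735844-29735873, plus strand: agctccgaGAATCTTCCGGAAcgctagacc
Hspa1a, chr17:34972242-34972271, minus strand: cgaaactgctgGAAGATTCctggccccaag
Cct2, chr10:117063399-117063428, minus strand: ccccaagtgaaGAAGTTTCtagcaggacct
Cct5, chr15:31601862-31601891, minus strand: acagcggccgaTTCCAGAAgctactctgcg

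A window was found for 62 of the 77 member symbols, and Hsp90ab1, Hsp90aa1, Hspa8, Hspa9 and Cct4 were among the 15 not searched. Each element reads the same on both strands. GAANNTTC was in 16 members (25.8%), beside 9.04% of all 27025 genes with a window, and TTCNNGAA in 7 (11.3%), beside 9.60%. At least 1 of the elements was in 19 members (30.6%), beside 17.0% of genes. A run of 3 alternating GAA and TTC units with 2 bases between them, which holds both elements overlapping, was in Dnajb6, Hspd1, Hspe1 and Hsph1 (6.45% of members), beside 0.662% of genes. The log2 fold changes of these 4 genes were 0.02 for Dnajb6, 0.22 for Hspd1, 0.11 for Hspe1 and 0.14 for Hsph1. The run of Hspd1 and Hspe1 is the same sequence in their shared window, and each gene was counted. Likewise, the identical elements of Hspa1a and Hspa1b were counted for each gene. Hspa1a and Hspa1b, with 1 element each, were near 100 counts in every library, as given above.

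The small heat shock proteins, most of which hold unfolded proteins without using ATP, were mostly low, and 4 of the 8 were tested. Hspb8, partner of Bag3 in chaperone-assisted autophagy, had 0, 9.66 and 6.61 normalized counts in Control and 12.1, 31.3 and 30.2 in Prmt1-null iGBs. All Prmt1-null values were higher, but at counts this low the log2 fold change of 2.10 ± 0.86 is loose (adjusted p 0.291). Hspb1 had 12.1, 14.0 and 16.5 counts in Control and 26.3, 1.84 and 29.3 in Prmt1-null iGBs, so Prmt1-null replicate 2 was the lowest of all libraries and the other Prmt1-null libraries were the highest. Hspb6 had 380, 477 and 1359 counts in Control and 852, 917 and 847 in Prmt1-null iGBs. Control replicate 3 stood far above the rest, and the value rests on it. The log2 fold change was 0.24 ± 0.33 (adjusted p 0.81) with all libraries and 1.02 (adjusted p 0.00294) without Control replicate 3. Hspb11 overlapped between the groups, with a log2 fold change of -0.00. Beside these low genes, markers of the feeder fibroblasts, all 12 in the table and Postn at 0 in every library, summed to 29.6 to 34.3 CPM in Control and 32.6 to 41.6 CPM in Prmt1-null iGBs, overlapping, with Col1a1 and Sparc, 2 of the 10 markers tested (20%), higher without overlap beside 9.95% of all genes. Of those 10 markers, 9 had a log2 fold change above 0, and their median was 0.25. Their part in the small heat shock protein values was not tested.

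The 11 members that were not tested had few counts. Dnajb8, Dnajc22, Dnajc5g and Hspb3 were at 0 in all 6 libraries, where 3 counts correspond to 0.0478 to 0.0662 CPM. Cct8l1, Dnajb3, Dnajc5b, Dnajc6, Hspb2, Hspb7 and Hspb9 had at most 24 raw counts in any library. The remaining 20 members tested, left over because their groups overlapped and their unadjusted p was not under 0.05, had log2 fold changes between -0.15 and 0.22.

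The genes whose products work with the chaperones were counted to see if they moved with them. Of 51 partner genes in the table, none passed the threshold by edgeR, 3 (5.88%) had an unadjusted p under 0.05 in the higher direction and 1 (1.96%) in the lower, beside 6.5% and 7% of all genes, where 1.18% of all genes passed the threshold. Their median log2 fold change was 0.01. Among 17 HSP90 partners, Fkbp4, the immunophilin FKBP52 of steroid receptor complexes, had 2072, 2070 and 1960 counts in Control and 2485, 2408 and 2449 in Prmt1-null iGBs. The groups were well apart, with a log2 fold change of 0.27 ± 0.07 close to that of Hsp90ab1 and Hspa8, but the adjusted p was 0.0978. Tomm70a, the outer membrane receptor on which HSP90 and HSP70 dock with mitochondrial precursors, was also higher without overlap (7211 to 7680 against 8341 to 8613, log2 fold change 0.17 ± 0.06, adjusted p 0.185). Pih1d1, a subunit of the R2TP complex, was lower but overlapped (406 to 526 against 315 to 417, -0.38 ± 0.15, adjusted p 0.283). The median of the HSP90 partners was -0.03.

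None of the 9 HSP70 partners had an unadjusted p under 0.05, where 6.5% of all genes were higher and 7% lower by that measure. St13 (Hip), which steadies HSP70 in its ADP form, came nearest (11883 to 13849 against 14163 to 15326, log2 fold change 0.15 ± 0.07, adjusted p 0.394), followed by Stub1 (CHIP), the ubiquitin ligase that tags chaperone clients (0.19 ± 0.12). Timm44, which tethers Hspa9 to the import channel, had 673, 802 and 965 counts in Control and 1039, 945 and 1121 in Prmt1-null iGBs (0.35 ± 0.13, adjusted p 0.253). It was the 1 of 13 mitochondrial protein quality genes (7.69%) with an unadjusted p under 0.05, higher, beside 6.5% of all genes. Hscb followed (0.12 ± 0.08). The heat shock factors did not separate the groups. Hsf1, the master activator of the heat shock response, had 688, 868 and 789 counts in Control and 740, 811 and 630 in Prmt1-null iGBs (-0.11 ± 0.13), and Hsf2 had a log2 fold change of -0.18 ± 0.14. Of the prefoldin and CCT cofactor genes, Pdcl and Pdcl3 came nearest, at 0.09 ± 0.07 and 0.07 ± 0.07 with overlapping groups.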

How the data were processed

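The authors trimmed reads from stranded, rRNA-depleted libraries with Trimmomatic 0.32, aligned them with STAR 2.3.0e to mm10 (GRCm38), left out reads placed at more than 2 locations and assigned primary alignments to Ensembl exons with featureCounts 1.4.4 (versions per the submitters' processing notes). The authors deposited raw, unfiltered counts for each gene. The strand setting of the counting is not given in the sources used here, and the labels give 5 ng/ml IL-4 where the paper's methods give a lower concentration.

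Groups and sexes were taken from the labels. Counts were fitted in R 4.3.3 with edgeR 4.0.16 (TMM, filterByExpr minimum count 10, quasi-likelihood test), leaving out 398 chromosome Y genes. Values in the text are TMM-normalized counts. Calls needed a mean over 100 besides an adjusted p under 0.05. The test was run on simulated data whose changes were larger than that of Hsp90ab1 and whose spread was smaller than the common one here. That run did not cover changes as small as most of those described. Alternatives were DESeq2 1.42.0 and its size factors, limma-voom (limma 3.58.1), no filter, no minimum mean, sex or the replicate number in the model, chromosome Y kept, and each library left out. Same-numbered libraries came from different mice. Library totals bound precision, and a floor of 3 counts covers counting error only. The edgeR p-values set the difference between groups against the variation among 3 mice per group, with each gene's variation drawn toward that of other genes.

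Positions, exon lengths and windows of 31 bases shared between transcripts came from GENCODE M21 (GRCm38), matched by gene identifier for 37693 genes and by symbol for 803, and promoters from RefSeq. Members and lists were chosen with earlier results of these data known. Named genes were a fixed core list, members with an unadjusted p under 0.05, the highest per kilobase and the extreme log2 fold changes of each class, members not tested, and partners past the threshold or the 2 of each list with the smallest p. Members whose groups did not overlap, Tcp1, Pih1d1 and the ratios between members were added after their values were seen.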

Additional observations from a re-analysis of the deposited data

How the results depend on the processing

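Of the 78 members, the number past the threshold was 1 in the report, 1 with DESeq2 size factors in edgeR, limma-voom, the replicate number as a block, chromosome Y genes kept or no minimum mean count, and 2 with the DESeq2 Wald test, no filter on low counts or sex as a covariate, when Hspa8 joined Hsp90ab1. Leaving out a library gave 0 to 2: 0 without Control replicate 2, Prmt1-null replicate 1 or Prmt1-null replicate 2, and 2 without Control replicate 3, when Hspb6 passed. The cause was not tested. Over all genes, 216 passed, against 720 by DESeq2, 675 without the filter and 31 to 340 with a library left out. With the replicate block, 151 genes and 1 member passed; same-numbered libraries deviated with correlations of -0.072, 0.048 and -0.077, and not every library correlated best with its own number, so the samples share only a number. Members at an unadjusted p under 0.05 in the higher direction numbered 8 to 11 in the alternatives with all libraries and 4 to 12 with a library left out, against 11. The members' median log2 fold change was 0.06 to 0.07 in the alternatives with all libraries and 0.05 to 0.09 with a library left out. Prmt1 kept its call in every alternative.

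Of the 47 tested members named, 10 changed sign in some setting, none of them past the threshold before. With a library left out, log2 fold changes ran from -0.14 to 0.00052 for Dnaja3, -0.093 to 0.012 for Dnajb1, -0.022 to 0.093 for Dnajb6, -0.12 to 0.038 for Hspa14 (identifier ENSMUSG00000079615), -0.027 to 0.96 for Hspb1, -0.64 to 0.20 for Cct6b, -1.01 to 0.71 for Dnajb7, -0.054 to 0.046 for Hspbap1, -0.063 to 1.02 for Hspb6 and -0.12 to 0.11 for Hspb11. With limma-voom, Hspb1 was at -0.30 and Hspb11 at 0.023. Without the filter, Hspbap1 was at 0.0021 and Hspb11 at 0.0018, and with the replicate block Hspb11 was at 0.0031. The chaperones' share of counts differed 1.09 to 1.12-fold with a library left out and 1.06-fold without Hsp90ab1, the latter chosen after seeing the data. Depth limits Hspb1, Hspb8, Hspa12b, Hspa1l, Dnajb7 and Cct6b, all with means under 100 counts.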

Other observations

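Rows of the count table with pseudogene symbols of the chaperones, left out of the comparison, also held counts. Cct3-ps1 had 482 to 812 raw counts per library, Dnajc19-ps 573 to 841 and Hspa9-ps1 490 to 764, and Hspe1-ps2, Hspe1-ps3 and Hspe1-ps5 had between 70 and 182. In the same edgeR fit, the log2 fold change of Prmt1-null against Control was -0.21 ± 0.15 for Cct3-ps1, -0.14 ± 0.13 for Dnajc19-ps and -0.04 ± 0.14 for Hspa9-ps1. It was 0.32 ± 0.25 for Hspe1-ps2, -0.28 ± 0.29 for Hspe1-ps3 and -0.07 ± 0.31 for Hspe1-ps5. The groups overlapped for all 6 of these rows. For comparison, the log2 fold changes were 0.13 for Cct3, 0.18 for Hspa9, -0.02 for Dnajc19 and 0.11 for Hspe1. Whether these counts come from the pseudogenes or from reads of their parent genes was not tested.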
